A study of Bos taurus with 15 samples.

Results

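The genes of the oxidative phosphorylation machinery were described in subcutaneous white adipose tissue of primiparous Holstein dairy cows around calving. They were chosen by name alone: a gene was a member when its symbol started with NDUFA, NDUFB, NDUFC, NDUFS or NDUFV and a digit, with UQCR, with COX4 to COX8, or with ATP5, in all 6 comparison tables. This rule took 78 of the 13896 genes listed, of which 36 were placed in complex I, 8 in complex III, 17 in complex IV and 17 in the ATP synthase. NDUFA4 and its paralogue NDUFA4L2 were placed with complex IV. ATP5S and ATP5SL, now named DMAC2L and DMAC2, are not core subunits of the ATP synthase and were kept with it for their older names only. All 78 names matched a RefSeq cow gene, 61 by current symbol and 17 (the ATP5 genes) by an older symbol.

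Fat was taken from the dewlap, under the neck, of 3 cows a group before calving (-4 weeks peripartum, wkpp) and after it (1 wkpp and 16 wkpp), and total RNA depleted of ribosomal RNA was sequenced. The 15 libraries form 5 groups of 3, which share breed, first parity and tissue. The first group was sampled at -4 wkpp, before the diet experiment started. The remaining 4 groups were sampled at 1 and at 16 wkpp in cows fed a low-energy (LE) or a high-energy (HE) diet from 1 month before calving. The study sorts its cows by measured negative energy balance (NEB) into severe (SNEB) and moderate (MNEB) and sequenced those with the most extreme values at 1 wkpp, whereas the labels give only the diet. The LE libraries were taken as SNEB and the HE libraries as MNEB here, a match that the sources used here do not state, so SNEB and MNEB below stand for LE and HE. The values came from bulk tissue, in which fewer cells of a type and less RNA per cell cannot be told apart. Per the study's methods each cow was biopsied at every time point, so libraries of 1 NEB group at different times may come from the same cows. Which cow gave which library was not known here, so the fits treat libraries as independent and the p-values measure the spread between them.

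Oxidative phosphorylation takes electrons from NADH and succinate along the inner mitochondrial membrane to oxygen and uses the energy to make ATP. Complex I (NADH dehydrogenase), complex III (cytochrome bc1 complex) and complex IV (cytochrome c oxidase) pump protons across that membrane, and the ATP synthase lets them back through a rotor that drives ATP formation. All members are encoded in the nucleus, made in the cytosol and imported, and they assemble with subunits that the mitochondrial genome encodes. In white adipocytes mitochondria supply the ATP that fat storage and release need, and several complex IV subunits exist as paralogues that differ between tissues.

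Counts of single libraries were solved from the means over 6 libraries that the tables give, once for exonic reads and once for reads over the whole gene (exons plus introns). The whole gene counts did not hold every exon read. ATP5L and COX6B2 had exon counts but were at 0 in all 15 libraries on whole gene values. A rule that needs both analyses could therefore not call ATP5L. Levels below are exon counts divided by a size factor over all 15 libraries, called normalized exon counts. They were not divided by gene length, so levels are compared between libraries and not between genes. The solved counts summed to between 1964508 and 13941365 per library on exons, and 4 of the 6 MNEB libraries lay under 3000000, against 10680314 or more in the SNEB libraries and 7371559 or more at -4 wkpp. Spike-in RNA rows made up 39.8% of the mean normalized exon counts in the table of MNEB libraries and 3.83% in that of SNEB libraries. Both depth in these counts and spike-in share therefore differ with the NEB group, and their part in the differences below was not tested. Values from thinned libraries, where given, make the totals equal and do not bear on the spike-in share. Per the study's alignment summary, total reads lay in an overlapping range in all groups. The share of uniquely mapped reads was lower in every MNEB library than in all other libraries. The titles also carry a tag, m1 (-4 wkpp, MNEB 1 wkpp and SNEB 16 wkpp) or m2 (SNEB 1 wkpp and MNEB 16 wkpp), which the sources used here do not explain. The ratio of spike-in ERCC-00131 to ERCC-00079, a pair named after its values were seen, split by the tag, with 2.73 to 3.98 in the 9 m1 libraries and 0.367 to 0.460 in the 6 m2 libraries, so the tag moved with the composition of the spike-in RNA. Whether it marks any other difference was not tested, and only the comparison of -4 wkpp with MNEB cows at 1 wkpp stays within 1 tag. In the other 5 comparisons the tag and the groups compared cannot be told apart.

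Shares were taken of a library's exon counts summed over the solved genes, which leaves out 12 genes, COL1A1 and SCD among them. The members took 0.506% to 0.563% of these counts at -4 wkpp and 0.258% (median) at 1 wkpp in MNEB cows. They took 0.332% to 0.387% at 16 wkpp in MNEB cows, 0.383% to 0.443% at 1 wkpp in SNEB cows and 0.424% to 0.439% at 16 wkpp in SNEB cows. The share was thus highest before calving and lowest at 1 wkpp in MNEB cows, with no overlap between those groups.

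In all 4 complexes the mean was highest at -4 wkpp, lower in SNEB cows at 1 wkpp and lowest in MNEB cows at 1 wkpp. For the ATP synthase, the summed normalized exon counts of its 17 members were 14602, 15487 and 13835 in the 3 libraries at -4 wkpp, 6550.2, 6289 and 6254 at 1 wkpp in MNEB cows and 10618, 12094 and 10228 at 1 wkpp in SNEB cows. At 16 wkpp they were 8958, 10444 and 9564 in MNEB cows and 12310.1, 11871 and 11676 in SNEB cows. The -4 wkpp libraries lay above every other library and the MNEB 1 wkpp libraries below every other library.

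For complex I, the sums of the 36 members were 13303 ± 1504 (SD, n = 3) at -4 wkpp, 6709.9 ± 458 at 1 wkpp in MNEB cows and 10209 ± 825 at 1 wkpp in SNEB cows, with 8788 ± 453 and 10917 ± 128 at 16 wkpp. For complex IV, they were 5776 ± 685, 2845 ± 235 and 4410.0 ± 674, with 4164 ± 552 and 4917 ± 183 at 16 wkpp. For complex III, they were 4359 ± 349, 2437 ± 119 and 3259.8 ± 176, with 3198 ± 452 and 3154 ± 63.6 at 16 wkpp. Mean sums at -4 wkpp were 1.98 (complex I), 1.79 (complex III), 2.03 (complex IV) and 2.30 (ATP synthase) times those at 1 wkpp in MNEB cows. Against SNEB cows at 1 wkpp the same ratios were 1.303, 1.34, 1.31 and 1.33. A sum is carried by its members with the most reads, so the counts of single members are given with each comparison.

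**Figure D1:**
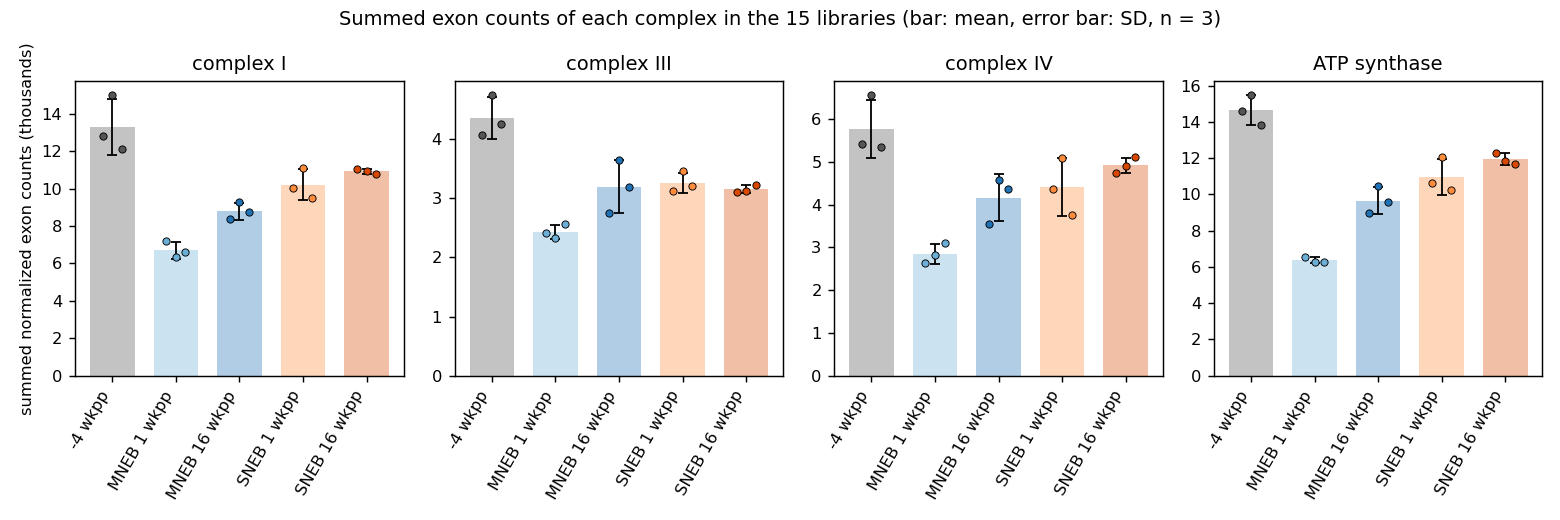
Summed normalized exon counts (y axis, in units of 1000) of the members of each complex in the 5 groups (x axis); each point is 1 library, bars are means and error bars SD of 3 libraries. In every panel the 3 MNEB 1 wkpp libraries lie below and the 3 libraries of -4 wkpp above all others, as in the ATP synthase panel with means of 6365 and 14641 counts.

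The first comparison set late pregnancy (-4 wkpp) against early lactation (1 wkpp) in MNEB cows. The libraries of -4 wkpp were taken before the diets and belong to no NEB group, so it is not a change within MNEB cows. Nearly all members were higher at -4 wkpp: 72 of the 74 members that passed the filter on low exon values (a mean normalized count of at least 10) had a positive log2 difference, with a median of 1.03, beside 0.052 over all 10511 genes tested. COX6A2, COX6B2, COX7B2 and COX8B did not pass the filter. The exon values of the 2 groups did not overlap in 56 members, all higher at -4 wkpp, where 23.4% of all genes tested were higher without overlap. However, no member was called by the rule used here, an adjusted p below 0.01 in both the exon and the whole gene analysis (limma), which called 2.37% of all genes tested in both, or 246 genes. With 1 library left out that number ranged from 1 (without -4 wkpp library 2) to 423 (without MNEB 1 wkpp library 1). A fit of the counts with voom weights in place of the trend also called 0 members, here and in every comparison below.

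The exon analysis alone called 32 of 74 members, all higher at -4 wkpp (limma, adjusted p below 0.01), beside 8.07% of all genes called in that direction. The whole gene analysis called 0 of 75, with a lowest adjusted p of 0.0104 (limma), just short of the threshold. At an adjusted p below 0.05 in both analyses 15 members were called, all higher at -4 wkpp, beside 4.88% of all genes. At an unadjusted p below 0.05 on exons there were 55 members higher and 0 lower, beside 21.6% of all genes higher. The share of whole gene counts beyond the exon counts, an estimate of the intronic share, was 20.1% to 30.4% for the members at -4 wkpp. In MNEB cows at 1 wkpp it was 32.2% to 35.8%. The estimate takes whole gene counts to hold all exon counts, which was not so for ATP5L and COX6B2. Over all genes it was 47.4% to 61.2% and 46.5% to 52.9%, which overlapped.

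**Figure D2:**
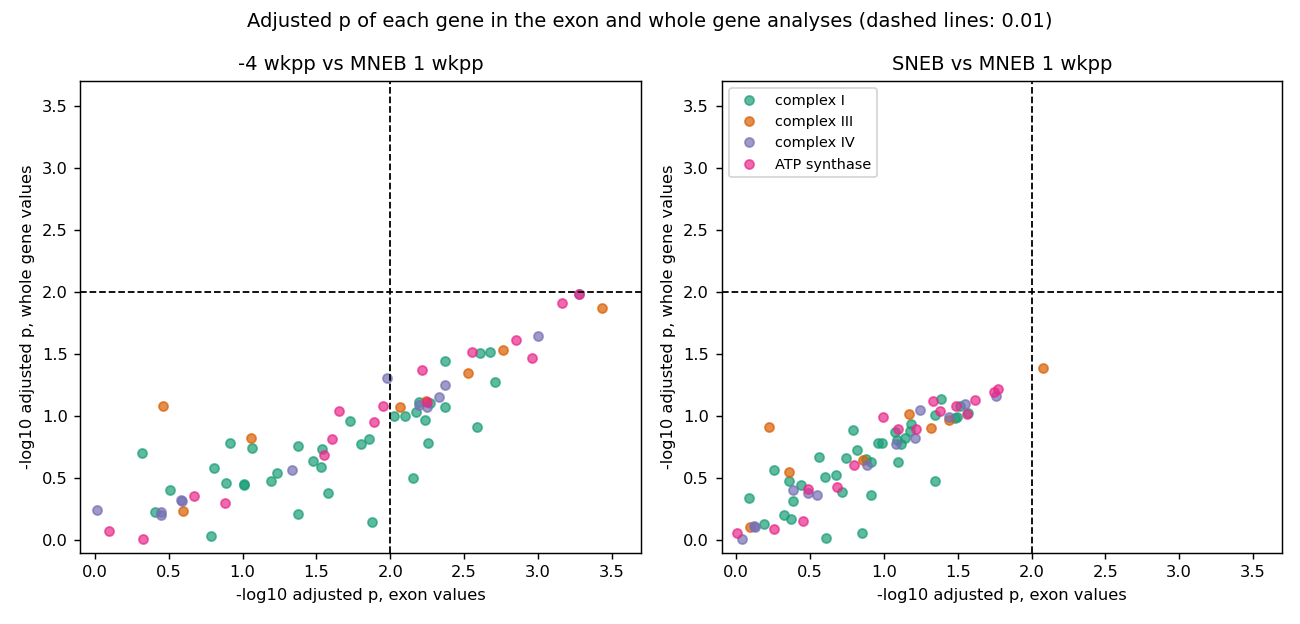
Adjusted p (limma, as -log10) of each member in the exon analysis (x axis) and the whole gene analysis (y axis) for 2 comparisons, coloured by complex; dashed lines mark 0.01. For -4 wkpp against MNEB cows at 1 wkpp (left) 32 members lie right of the vertical line and none above the horizontal one; for SNEB against MNEB cows at 1 wkpp (right) 1 member, UQCRB, lies right of it.

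By complex, 36 of 36 complex I members were higher at -4 wkpp (median log2 difference 1.00, range 0.45 to 1.70), 14 of them called on exons alone. All 8 complex III members were higher (median 1.36, range 0.32 to 2.24), 5 called on exons. In complex IV 12 of 13 were higher (median 1.23), 6 called on exons, and in the ATP synthase 16 of 17 (median 1.01), 7 called on exons. The median difference of the whole gene values was smaller in each complex, at 0.73, 1.18, 0.99 and 0.91.

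The lowest unadjusted p on exons was that of UQCRB, which encodes the ubiquinone-binding subunit of complex III. Its normalized exon counts were 312, 343 and 346 at -4 wkpp and 57.3, 91.9 and 66.1 at 1 wkpp in MNEB cows. The groups were far apart, with a log2 difference of 2.24 ± 0.26 (SE, n = 3 per group, limma adjusted p = 3.67e-04). On whole gene values the log2 difference was 1.84 ± 0.31 (limma adjusted p = 0.0135), which missed 0.01. NDUFA4, a small subunit found with complex IV, followed with 632, 689 and 674 at -4 wkpp and 229, 219 and 198 in MNEB cows at 1 wkpp. The lowest value before calving was thus more than 2 times the highest after it in MNEB cows, and the log2 difference was 1.64 ± 0.21 (SE, limma adjusted p = 5.30e-04 on exons and 0.0104 on the whole gene).

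Of the members that went against this direction, ATP5E, the epsilon subunit of the ATP synthase, had the lower p. Its normalized exon counts were 14.4, 62.3 and 24.3 at -4 wkpp and 52.1, 111 and 18.4 at 1 wkpp in MNEB cows, so the groups overlapped (log2 difference -0.72 ± 0.71 SE, limma adjusted p = 0.471). COX7B, a small complex IV subunit, had 39.7, 3.67 and 65.4 against 25.02, 35.1 and 14.70, likewise with overlap (log2 difference -0.046 ± 0.90 SE, limma adjusted p = 0.976). On whole gene values both had a positive difference, of 0.041 ± 0.64 and 0.50 ± 0.55 (SE). Small subunits such as these often have pseudogene copies in mammals, and how reads that fit several places were counted was not tested.

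Members of each complex are given here by role, in groupings made after their values were seen. In complex III the core proteins UQCRC1 and UQCRC2 and the hinge protein UQCRH had log2 differences between -4 wkpp and MNEB cows at 1 wkpp of 0.34 ± 0.22, 0.69 ± 0.28 and 0.32 ± 0.25 (SE), none below an adjusted p of 0.05 on exons (limma). The Rieske protein UQCRFS1 and the small subunits UQCR10, UQCR11 and UQCRQ had 1.58 ± 0.26, 1.54 ± 0.29, 1.51 ± 0.32 and 1.22 ± 0.28, and these 4 were called on exons with UQCRB. UQCRC2 had 282, 222 and 319.5 at -4 wkpp and 230.4, 132 and 162 in MNEB cows at 1 wkpp, whereas UQCRQ had 309, 501 and 355 against 134, 216 and 154. Members of 1 complex thus varied in the size of the difference, a contrast that was not tested.

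In complex I, NDUFS1, the largest of the iron-sulphur subunits, had 1142, 978 and 1132 at -4 wkpp and 462, 443 and 187 in MNEB cows at 1 wkpp (log2 difference 1.70 ± 0.34 SE, limma adjusted p = 0.00427). NDUFS7, which carries the last iron-sulphur centre before ubiquinone, had a log2 difference of 1.58 ± 0.27 (SE, limma adjusted p = 0.00195). Smaller differences were found for other core subunits of that arm, 0.64 ± 0.26 for NDUFS3, 1.02 ± 0.32 for NDUFS8, 0.68 ± 0.29 for NDUFV1 and 0.73 ± 0.33 for NDUFV2 (SE), none called on exons. Among the accessory subunits the range was from NDUFA8 with 0.45 ± 0.22 to NDUFB3 with 1.65 ± 0.29 (SE), and NDUFB3 had 294, 280.5 and 250.4 at -4 wkpp and 59.4, 97.3 and 118 in MNEB cows.

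In the ATP synthase the catalytic head subunits ATP5A1 and ATP5B had log2 differences of 1.53 ± 0.21 and 1.56 ± 0.25 (SE), and the gamma and delta subunits ATP5C1 and ATP5D of its central stalk 0.94 ± 0.20 and 1.03 ± 0.30. The 3 genes that encode the same c subunit of the rotor, ATP5G1, ATP5G2 and ATP5G3, had 1.33 ± 0.40, 1.01 ± 0.25 and 1.55 ± 0.20. ATP5G1 had 135, 177 and 159.8 at -4 wkpp and 87.6, 83.8 and 33.1 in MNEB cows at 1 wkpp, and ATP5G2 1029, 1288 and 793 against 448, 640.3 and 463. The peripheral stalk subunits ATP5F1, ATP5H, ATP5J and ATP5O lay between 0.85 and 1.13. The small membrane subunits ATP5I and ATP5L, with 0.13 ± 0.35 and 0.45 ± 0.27 (SE), had the smallest positive differences, while ATP5J2 had 1.80 ± 0.27.

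In complex IV, COX5A and COX5B are subunits without a listed paralogue. COX5A had 407, 349.5 and 314 at -4 wkpp and 144, 173 and 88.2 in MNEB cows at 1 wkpp, and COX5B had 454, 822 and 599 against 192, 292 and 232. Neither gene's groups overlapped, and the log2 differences were 1.46 ± 0.29 (SE, limma adjusted p = 0.00465) and 1.38 ± 0.28 (SE, limma adjusted p = 0.00427).

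**Figure D3:**
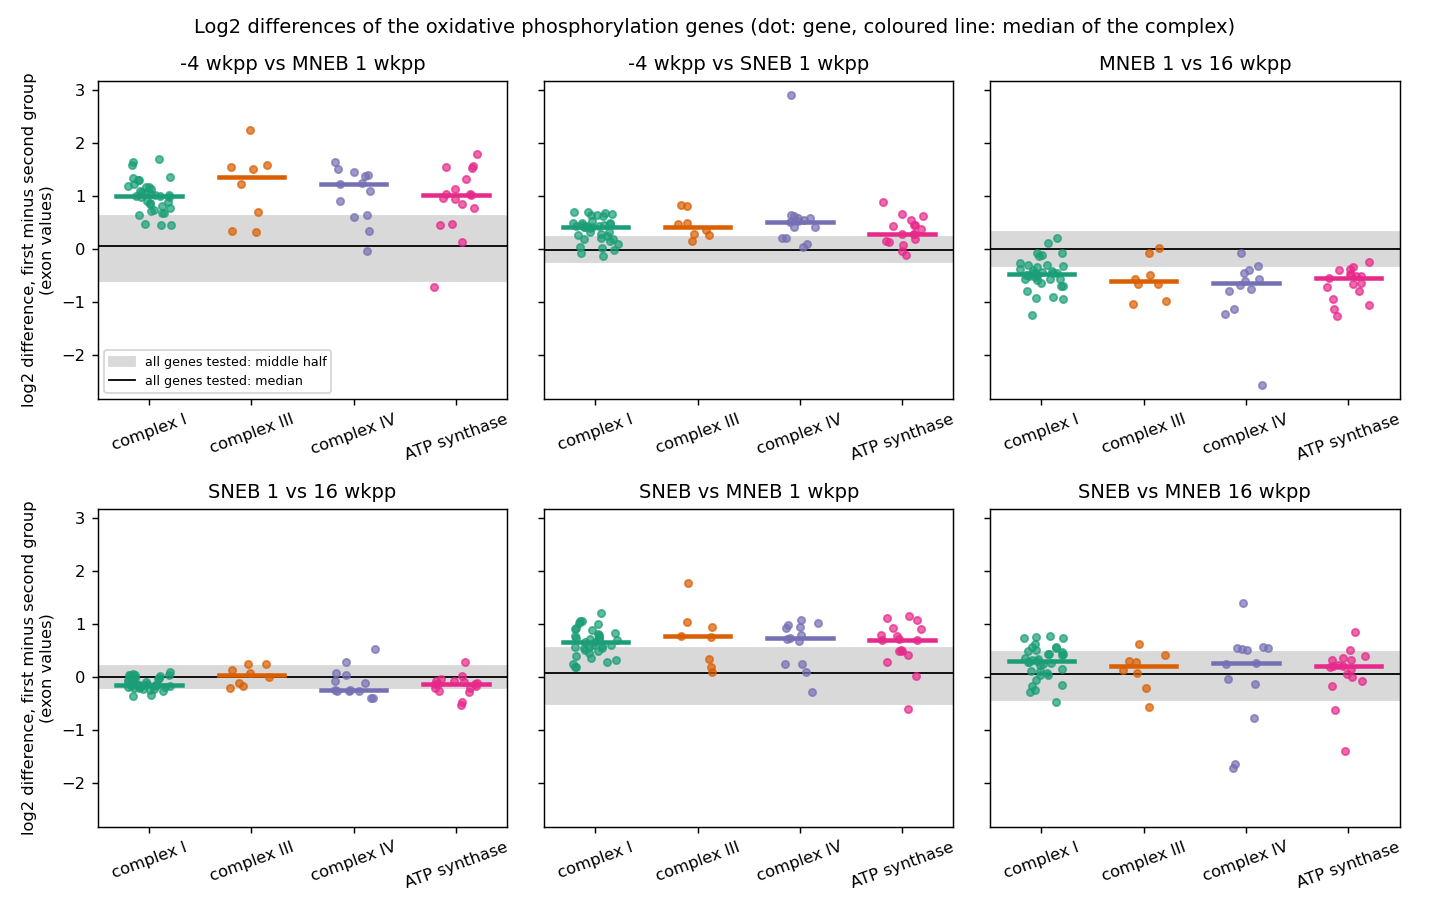
Log2 difference of normalized exon counts, first minus second group of each comparison (y axis), by complex (x axis); each dot is a member, coloured lines are medians of the complex, the black line and grey band are the median and the interquartile range of all genes tested. Most members lie above the line of all genes for -4 wkpp against MNEB cows at 1 wkpp (median 1.03) and for SNEB against MNEB cows at 1 wkpp (median 0.70), and closer to it for SNEB cows at 1 against 16 wkpp (median -0.13).

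SNEB cows at 1 wkpp were compared with the same 3 libraries of -4 wkpp, so the 2 comparisons are not independent and neither follows 1 NEB group over calving. Of 75 members tested on exons, 70 were higher at -4 wkpp, with a median log2 difference of 0.42 (whole gene 0.25), beside -0.025 over all genes. COX8B is among these and passed the filter only because it was high at -4 wkpp, and without it 69 of 74 were higher with a median of 0.41. The groups did not overlap in 34 members (COX8B among them), all higher at -4 wkpp, beside 10.3% of all genes. No member was called by limma in both analyses, where 0.0945% of all genes were, and 28 members other than COX8B had an unadjusted p below 0.05 on exons, all higher at -4 wkpp, beside 8.68% of all genes. Medians were 0.42 in complex I, 0.42 in complex III, 0.52 in complex IV (0.51 without COX8B) and 0.28 in the ATP synthase.

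ATP5G3, one of 3 genes for the membrane ring subunit c of the ATP synthase, had the lowest p. Its normalized exon counts were 960.0, 929 and 921 at -4 wkpp, 503, 524 and 501 at 1 wkpp in SNEB cows and 337, 308 and 323 at 1 wkpp in MNEB cows. Values within each group were close, and the log2 difference was 0.88 ± 0.14 (SE, limma adjusted p = 0.0170 on exons, 0.126 on the whole gene) for SNEB and 1.55 ± 0.20 (adjusted p = 5.30e-04 and 0.0104) for MNEB cows. UQCRFS1, the Rieske iron-sulphur protein of complex III, had 759.7, 760.2 and 592 at -4 wkpp and 355, 437 and 399.6 in SNEB cows at 1 wkpp, again without overlap (log2 difference 0.82 ± 0.17 SE, limma adjusted p = 0.0540). On the other side, NDUFB4, an accessory subunit of complex I, had 102, 112 and 116 at -4 wkpp and 117, 109 and 121 in SNEB cows (log2 difference -0.071 ± 0.19 SE, limma adjusted p = 0.906). NDUFA3, also an accessory subunit, had 47.2, 282 and 181 against 145, 204 and 107, with 1 library at -4 wkpp far below the remaining 2 (log2 difference -0.13 ± 0.58 SE, limma adjusted p = 0.945). Neither differed beyond the spread between libraries.

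From 1 to 16 wkpp in MNEB cows, members were higher at 16 wkpp. Of 73 members tested on exons (COX7A2 was below the filter here, with COX6A2, COX6B2, COX7B2 and COX8B), 70 were lower at 1 wkpp, with a median log2 difference of -0.52 (1 minus 16 wkpp; whole gene -0.55), beside -0.001 over all genes. The groups did not overlap in 33 members, all lower at 1 wkpp, beside 10.5% of all genes. Limma called no member and 0% of all genes in both analyses, and 25 members had an unadjusted p below 0.05, all lower at 1 wkpp, beside 7.75% of all genes. Complex medians were -0.47 (I), -0.61 (III), -0.65 (IV) and -0.55 (ATP synthase). This comparison, the first and that of SNEB with MNEB cows at 1 wkpp share the 3 MNEB libraries of 1 wkpp.

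ATP5J2, a subunit of the membrane part of the ATP synthase, had normalized exon counts of 163, 105 and 180.1 at 1 wkpp and 282, 329 and 352 at 16 wkpp in MNEB cows. These did not overlap (log2 difference -1.13 ± 0.27 SE, limma adjusted p = 0.202). ATP5A1, the alpha subunit of its catalytic head, had 1019, 783 and 933 at 1 wkpp and 1497, 1739.9 and 1487 at 16 wkpp (log2 difference -0.80 ± 0.21 SE, limma adjusted p = 0.224), also apart. Neither reached the values at -4 wkpp, which were 486, 598 and 436 for ATP5J2 and 2794, 2581 and 2414 for ATP5A1. NDUFA8, an accessory complex I subunit, was among the 3 members with a positive difference, with 221, 213 and 265 at 1 wkpp and 216, 190.2 and 192 at 16 wkpp (log2 difference 0.21 ± 0.23 SE, limma adjusted p = 0.691). NDUFC1, another accessory subunit with few counts, had 18.8, 32.4 and 29.4 against 21.5, 33.4 and 19.0, which overlapped (log2 difference 0.11 ± 0.53 SE, limma adjusted p = 0.936).

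In SNEB cows the 2 lactation time points were closest to each other. Of 74 members tested, 57 were lower at 1 than at 16 wkpp, with a median log2 difference of -0.13 and a range of -0.53 to 0.53, beside a median of -0.011 over all genes. The groups did not overlap in 7 members, all lower at 1 wkpp, beside 5.07% of all genes. Limma called no member and 0% of all genes, and 0 members had an unadjusted p below 0.05, beside 7.36% of all genes.

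The lowest p belonged to ATP5A1, with normalized exon counts of 1517, 1885 and 1676 at 1 wkpp and 2056, 2052 and 1891 at 16 wkpp in SNEB cows. The groups were apart by a small margin (log2 difference -0.27 ± 0.14 SE, limma adjusted p = 0.695). COX8A, the common form of the smallest complex IV subunit, had 506, 565 and 339.6 against 702, 569 and 536 (log2 difference -0.40 ± 0.22 SE, limma adjusted p = 0.695). Higher at 1 wkpp were COX4I2, with 39.5, 48.1 and 31.3 against 33.8, 14.69 and 37.4 (log2 difference 0.53 ± 0.42 SE, limma adjusted p = 0.762), and UQCRH, the hinge protein of complex III. UQCRH had 569, 674 and 801 at 1 wkpp and 469.7, 539 and 697 at 16 wkpp, with overlap (log2 difference 0.24 ± 0.20 SE, limma adjusted p = 0.768).

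SNEB and MNEB cows, by label the LE and HE diet groups, were then compared at 1 wkpp. Members were higher in SNEB cows in 72 of 74 cases, with a median log2 difference of 0.70 (whole gene 0.58), beside 0.075 over all genes. The groups did not overlap in 48 members, all higher in SNEB cows, beside 19.9% of all genes. Limma called no member and 0% of all genes in both analyses. On exons alone it called 1 member, UQCRB, beside 1.19% of all genes in that direction, and at 0.05 in both analyses again UQCRB only, beside 1.34%. An unadjusted p below 0.05 was found for 42 members, all higher in SNEB cows, beside 17.5% of all genes.

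UQCRB had 255, 224 and 238 normalized exon counts in SNEB cows and 57.3, 91.9 and 66.1 in MNEB cows at 1 wkpp. The lowest SNEB library was more than 2 times the highest MNEB library (log2 difference 1.77 ± 0.27 SE, limma adjusted p = 0.00836 on exons and 0.0405 on the whole gene). ATP5B, the beta subunit that carries the catalytic sites of the ATP synthase, had 2586, 2717 and 2562 in SNEB and 1560.4, 1321 and 904 in MNEB cows (log2 difference 1.11 ± 0.24 SE, limma adjusted p = 0.0168 and 0.0599), again without overlap. ATP5E, with 16.2, 54.8 and 31.3 in SNEB and 52.1, 111 and 18.4 in MNEB cows, and COX7B, with 15.7, 13.4 and 31.3 against 25.02, 35.1 and 14.70, were the only members with a negative difference, and both overlapped. Their log2 differences were -0.60 ± 0.69 (SE, limma adjusted p = 0.558) and -0.28 ± 0.58 (SE, limma adjusted p = 0.758).

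By complex, medians were 0.65 for complex I (36 of 36 higher in SNEB cows), 0.76 for complex III (8 of 8), 0.73 for complex IV (12 of 13) and 0.70 for the ATP synthase (16 of 17). When all libraries were thinned to the depth of the shallowest, the median was 0.64 with 68 of 69 members higher in SNEB cows. Without the 2 MNEB libraries under 3000000 exon counts, which leaves 1 MNEB library, it was 0.62 with 66 of 74. For -4 wkpp against MNEB cows at 1 wkpp the same values were 0.99 with 68 of 69, and 1.07 with 71 of 75.

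At 16 wkpp the members were mixed. Of 74 tested on exons, 56 were higher and 18 lower in SNEB than in MNEB cows, with a median log2 difference of 0.26 (whole gene 0.15), beside 0.044 over all genes. The exon median ranged from 0.16 (without MNEB 16 wkpp library 1) to 0.33 (without MNEB 16 wkpp library 2) when 1 library was left out. The groups did not overlap in 25 members higher and 4 lower in SNEB cows, beside 22.5% and 21.6% of all genes. Limma called no member in both analyses and 4.52% of all genes, or 459 genes. Those called fell to between 80 and 298 with 1 library left out (lowest without SNEB 16 wkpp library 2) and to 0 without the 2 shallow MNEB libraries, a fit that keeps 1 MNEB library and so has little power. Unadjusted p was below 0.05 for 20 members higher and 4 lower, beside 19.5% of all genes in each direction. At 0.05 in both analyses 2 members were called, COX4I2 and ATP5E, both lower in SNEB cows, beside 8.77% of all genes.

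NDUFB3 and NDUFB10, accessory subunits of the membrane arm of complex I, had the lowest p among those higher in SNEB cows. NDUFB3 had 197, 174 and 207 normalized exon counts in SNEB and 125, 116 and 106 in MNEB cows (log2 difference 0.74 ± 0.20 SE, limma adjusted p = 0.0248), without overlap. NDUFB10 had 711, 856 and 696 against 371, 573 and 452, also apart (log2 difference 0.72 ± 0.20 SE, limma adjusted p = 0.0266). ATP5E had 70.7, 20.8 and 55.5 in SNEB and 99.7, 141 and 114 in MNEB cows, so every MNEB library lay above every SNEB library (log2 difference -1.40 ± 0.43 SE, limma adjusted p = 0.0418 on exons and 0.0491 on the whole gene). COX4I2 is described with its paralogue below.

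The 12 libraries of 1 and 16 wkpp allowed a test of whether the difference between these time points itself differed between SNEB and MNEB cows. This contrast sets the m2 against the m1 libraries, so it cannot be told apart from the tag. Limma called no member and 0% of all genes. On exons 66 of 74 members had a positive estimate, that is, a larger excess of 16 over 1 wkpp in MNEB than in SNEB cows, with a median of 0.43 beside 0.011 over all genes. The cytosolic ribosomal protein genes had 78 of 80 positive and a median of 0.49. The difference between the 2 lists was not tested. An unadjusted p below 0.05 was found for 12 members, all positive, beside 3.77% of all genes. UQCR11, a small complex III subunit, had the lowest p, with 141, 70.2 and 110.2 against 216, 157 and 252 normalized exon counts in MNEB cows at 1 and 16 wkpp and 189.7, 251 and 191 against 194, 134 and 205 in SNEB cows. The 2 time points did not overlap in MNEB cows and overlapped in SNEB cows, and the estimate was 1.24 ± 0.41 (SE, limma adjusted p = 0.820). The estimate was 1.14 ± 0.38 (SE, adjusted p = 0.820) for UQCRB, -1.15 ± 0.79 (adjusted p = 0.904) for COX7A2 and -0.33 ± 0.27 (adjusted p = 0.917) for NDUFA8, all from limma.

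**Figure D4:**
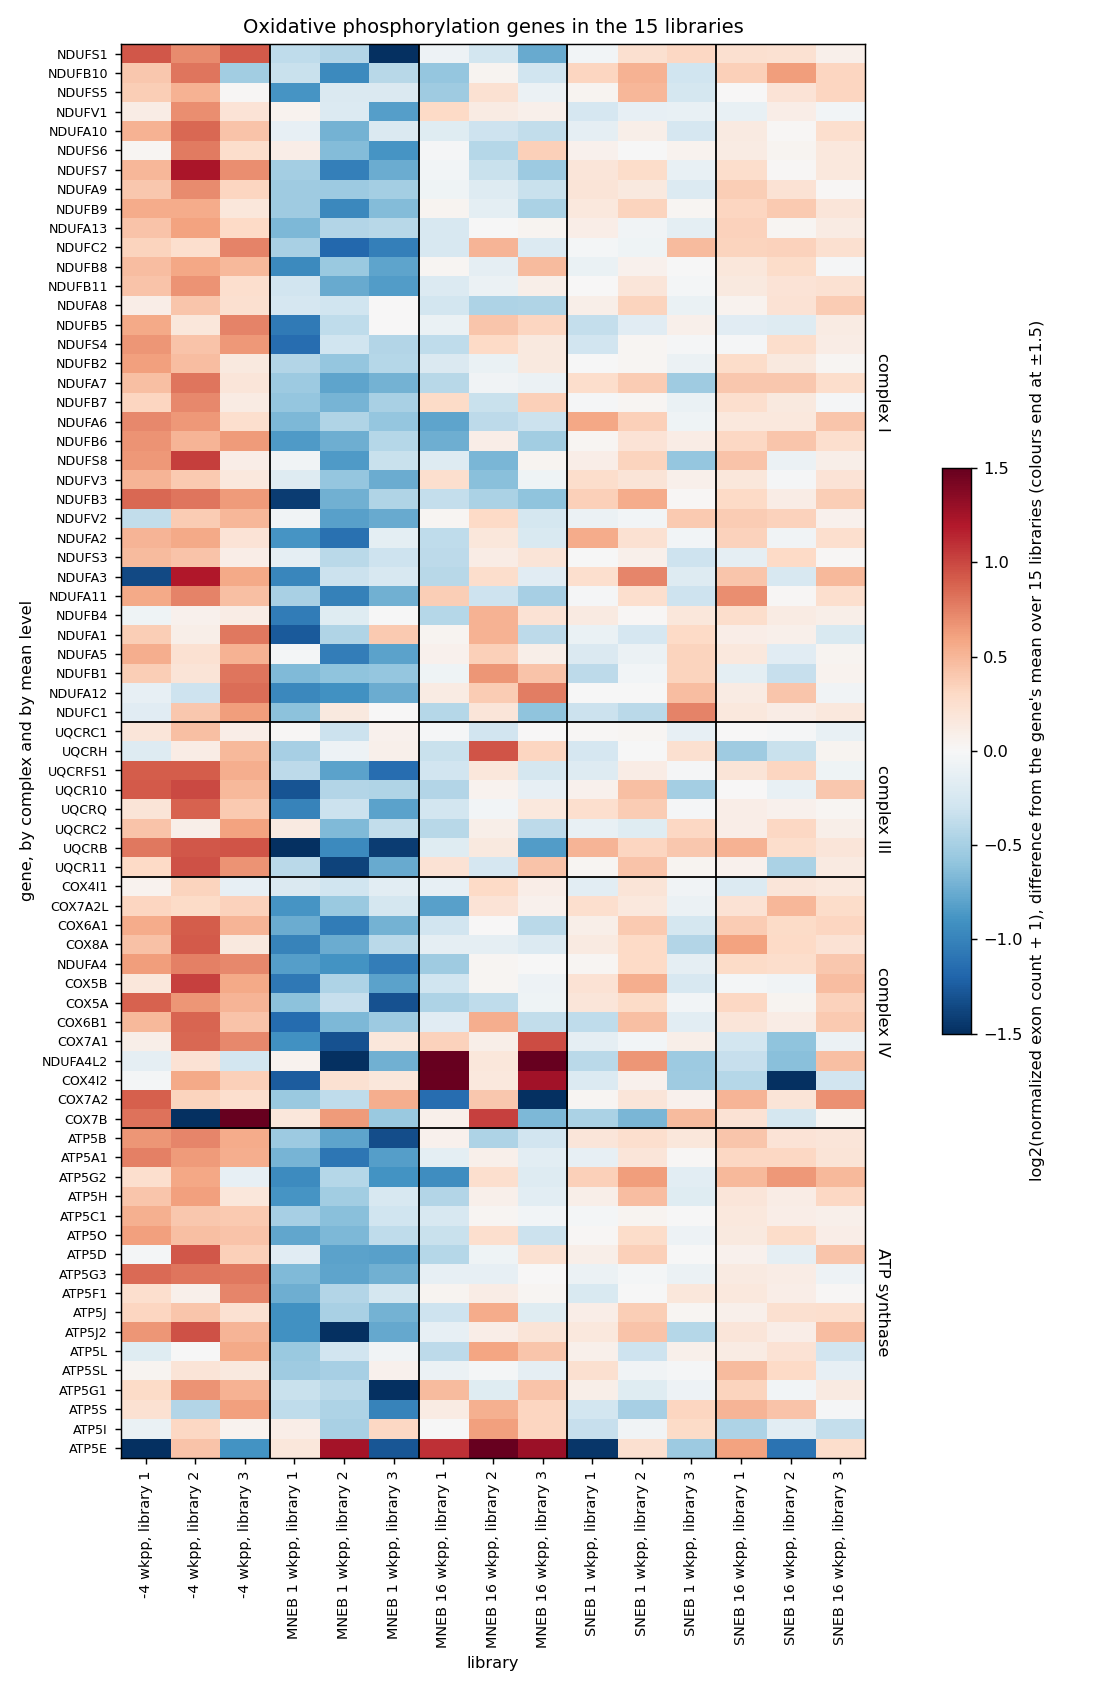
Each row is a member with a mean of at least 10 normalized exon counts (1 such member is not shown), ordered by complex and level, and each column is 1 of the 15 libraries; colour gives the log2 difference from the mean of that gene over all libraries. The 3 columns of -4 wkpp are mostly red and the 3 of MNEB cows at 1 wkpp mostly blue, while ATP5E, COX4I2 and NDUFA4L2 are highest on average in MNEB cows at 16 wkpp.

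The members with most exon counts in complexes III and IV and in the ATP synthase did not all show the pattern of their complex. ATP5B of the ATP synthase did, with 3606, 3772 and 3358 at -4 wkpp and 1560.4, 1321 and 904 at 1 wkpp in MNEB cows (log2 difference 1.56 ± 0.25 SE, limma adjusted p = 0.00140 on exons and 0.0243 on the whole gene), and 2373, 1649.9 and 1874 against 3030.0, 2636 and 2576 at 16 wkpp in MNEB and SNEB cows.

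UQCRC1, a core protein of complex III, stayed in a narrow range, from 743 to 1266 over the 15 libraries. Its log2 differences ran from -0.009 to 0.34 in the 6 comparisons. COX4I1, the common form of complex IV subunit 4, had 1034, 1260.0 and 916 at -4 wkpp and 859, 813 and 893 at 1 wkpp in MNEB cows (log2 difference 0.33 ± 0.21 SE, limma adjusted p = 0.258). UQCRC1 and COX4I1 were thus apart between these groups, by less than the median of their complex. UQCRH, with 592, 731 and 950.1 at -4 wkpp and 479, 643 and 713 at 1 wkpp in MNEB cows, overlapped.

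Paralogues of complex IV subunits were set side by side. COX4I2, the paralogue of COX4I1 that is known from lung and from low-oxygen conditions, had 130.1, 51.4 and 111 normalized exon counts at 16 wkpp in MNEB cows. In SNEB cows at that time it had 33.8, 14.69 and 37.4, with no overlap (log2 difference of SNEB from MNEB cows -1.72 ± 0.47 SE, limma adjusted p = 0.0269 on exons and 0.0313 on the whole gene). COX4I1 had 866, 1136 and 1112 in SNEB and 915, 1231 and 1069.6 in MNEB cows at that time (log2 difference -0.037 ± 0.18 SE, limma adjusted p = 0.898). At 1 wkpp COX4I2 had 18.8, 54.0 and 51.4 in MNEB cows and at -4 wkpp 44.9, 68.4 and 58.9, which overlapped.

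NDUFA4L2, a paralogue of NDUFA4 known as a target of hypoxia-inducible factor, had 142, 48.8 and 265 at 16 wkpp and 44.8, 5.40 and 25.7 at 1 wkpp in MNEB cows. Its log2 difference between them was -2.56 ± 0.76 (1 minus 16 wkpp, SE, limma adjusted p = 0.249), and that of SNEB from MNEB cows at 16 wkpp was -1.65 ± 0.57 (SE, adjusted p = 0.0601). The spread between the 3 MNEB libraries was wide, and COX4I2 was lowest in the same library as NDUFA4L2 at 16 wkpp. NDUFA4 itself had 283, 416 and 406 at 16 wkpp in MNEB cows and 497, 489.7 and 541 in SNEB cows, the opposite order (log2 difference 0.50 ± 0.19 SE, limma adjusted p = 0.0876).

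COX7A1, the form of subunit 7a common in heart and muscle, had 80.0, 137 and 124 at -4 wkpp, 39.6, 29.7 and 84.5 against 95.8, 79.7 and 149 in MNEB cows at 1 and 16 wkpp, and 68.1, 72.7 and 79.7 against 61.8, 49.0 and 70.3 in SNEB cows. It was higher at -4 wkpp than in MNEB cows at 1 wkpp by a log2 difference of 1.25 ± 0.43 (SE, limma adjusted p = 0.0464), with 1 MNEB library inside the -4 wkpp range. COX7A2L, which takes part in supercomplexes of complexes III and IV, had 993, 974 and 1009 at -4 wkpp and 429, 543 and 661 in MNEB cows at 1 wkpp (log2 difference 0.90 ± 0.22 SE, limma adjusted p = 0.0105). COX7A2 had few exon counts, from 5.42 to 47.2, and none of its differences reached an adjusted p below 0.05 (limma).

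COX8B, the muscle and brown fat form of subunit 8, had 16.7, 17.1 and 18.7 at -4 wkpp and 2.16, 3.36 and 0.653 at 1 wkpp in SNEB cows. It passed the filter only in that comparison and only through the -4 wkpp libraries, so no test is given for it. In MNEB cows it had 2.08, 2.70 and 14.70 at 1 wkpp, 1 library near the -4 wkpp level, and 1.96, 5.14 and 0 at 16 wkpp. COX8A had 623, 873 and 512 at -4 wkpp and 230.4, 276 and 349 in MNEB cows at 1 wkpp, without overlap (log2 difference 1.23 ± 0.27 SE, limma adjusted p = 0.00635).

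COX6A1, the common form of subunit 6a, had 852, 1082 and 825 at -4 wkpp and 345, 278 and 353 in MNEB cows at 1 wkpp (log2 difference 1.51 ± 0.22 SE, limma adjusted p = 0.00101 and 0.0226 on the whole gene). COX6B1, the common form of subunit 6b, had 158, 207 and 151 against 50.03, 70.2 and 77.2 (log2 difference 1.40 ± 0.29 SE, limma adjusted p = 0.00567). Both groups were apart in each gene. The muscle form COX6A2 was at 0 in 14 of the 15 libraries with 2.70 in 1 MNEB library of 1 wkpp, and the testis form COX6B2 stayed at or below 7.35.

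**Figure D5:**
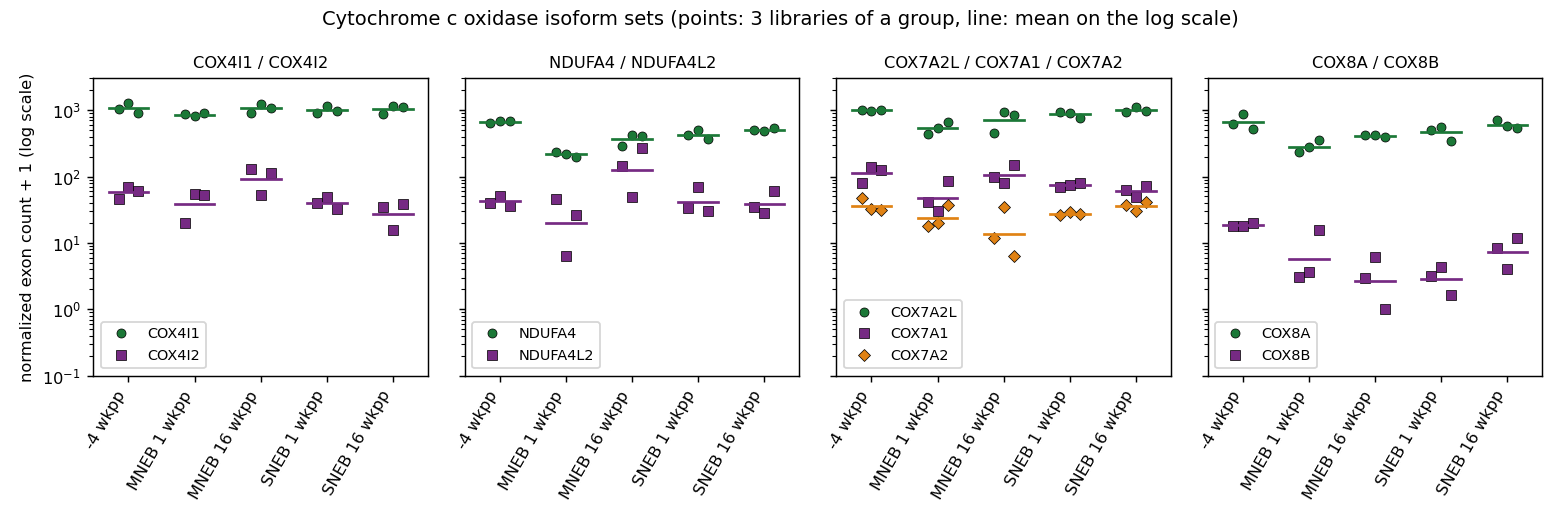
Normalized exon counts plus 1 (log scale, y axis) of 4 sets of complex IV paralogues in the 5 groups (x axis); points are libraries and lines are means on the log scale. COX4I2 and NDUFA4L2 are highest in MNEB cows at 16 wkpp, where COX4I2 lies between 51.4 and 130.1, while the group means of COX4I1 lie between 855 and 1072.

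Other genes of the pathway were taken from lists set with the members. The 4 genes of complex II, the succinate dehydrogenase, were all higher at -4 wkpp than in MNEB cows at 1 wkpp (median log2 difference 0.89, 4 without overlap, beside 23.4% of all genes) and 1 was called on exons alone, beside 8.07% of all genes. Of 5 electron carrier genes (CYC1, CYCS, ETFA, ETFB and ETFDH), 4 were tested and 3 were higher (median 0.84), with 2 called on exons, beside the same 8.07%. CYC1 belongs to complex III but is outside the name rule, so it is listed here and not with the members. Of 30 assembly factors tested, 22 were higher (median 0.31) and of 16 regulators of mitochondrial gene expression 7 (median -0.041). Of 8 carriers and uncoupling proteins of the inner and outer membranes tested, 7 were higher (median 0.90). ATPAF1, ESRRG, LRPPRC, PPARGC1B, SURF1, TTC19, UQCC1 and UQCC2 were not analysed here. The medians of the assembly factors and regulators were thus below that of the members, a difference that was not tested.

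In these lists 3 genes were called in both analyses for -4 wkpp against MNEB cows at 1 wkpp, beside 2.37% of all genes, and they are named because of their values. SLC25A4, the ADP/ATP carrier of the inner membrane, was higher at -4 wkpp by a log2 difference of 2.33 ± 0.26 (SE, limma adjusted p = 2.75e-04 on exons and 0.00971 on the whole gene). ACAD9, an assembly factor of complex I, and POLRMT, the mitochondrial RNA polymerase, were lower, with log2 differences of -2.01 ± 0.27 (SE, adjusted p = 6.93e-04 and 0.00756) and -2.29 ± 0.27 (SE, adjusted p = 3.82e-04 and 0.00635, limma). In the other 5 comparisons no gene of these lists was called in both analyses. For SNEB against MNEB cows at 1 wkpp the medians were 0.54 for complex II, 0.22 for electron carriers, 0.21 for assembly factors and 0.060 for regulators. The carriers and uncoupling proteins had a median of 0.67 there, close to the 0.70 of the members. PPARGC1A, a coactivator of mitochondrial biogenesis, had 243, 357 and 234 at -4 wkpp and 194, 340.4 and 298 in MNEB cows at 1 wkpp, which overlapped.

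Ribosomal protein genes had smaller medians than the members where -4 wkpp was compared. The 80 cytosolic ribosomal protein genes tested had a median log2 difference of 0.19 for -4 wkpp against MNEB and -0.17 against SNEB cows at 1 wkpp, beside 1.03 and 0.42 for the members. From 1 to 16 wkpp in MNEB cows their median was -0.58, close to the -0.52 of the members, and for SNEB against MNEB cows at 1 wkpp it was 0.39 beside 0.70. Mitochondrial ribosomal protein genes (75 tested) had medians of 0.49 for -4 wkpp against MNEB and 0.045 against SNEB cows at 1 wkpp. Their medians were -0.26 for MNEB cows at 1 against 16 wkpp (74 tested) and 0.42 for SNEB against MNEB cows at 1 wkpp (75 tested). These differences between lists were not tested.

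Markers of cell types that the biopsies could hold moved with the groups. Summed normalized exon counts of 8 adipocyte markers ran from 48195 to 59209 at -4 wkpp, 22015 to 59051 and 10909.7 to 42629.6 in MNEB cows at 1 and 16 wkpp, and 74586 to 89989 and 43794 to 50638 in SNEB cows, with no marker at 0 throughout a group. ADIPOQ was not analysed here. The adipocyte sums were highest in SNEB cows at 1 wkpp, where FABP4 alone made up 49.1% to 57.0% of them. Single markers went different ways. Against MNEB cows at 1 wkpp, 4 of 8 (LEP, PLIN1, CIDEC and AQP7) were higher at -4 wkpp without overlap and 2 (LIPE and PNPLA2) lower. Against SNEB cows at 1 wkpp, 3 (LEP, CIDEC and AQP7) were higher at -4 wkpp without overlap and 3 (PLIN1, LIPE and FABP4) lower. AQP7, a glycerol channel named because of its values, had 2446, 2626 and 1983 at -4 wkpp, 261, 646 and 658 in MNEB and 650.2, 1187 and 682 in SNEB cows at 1 wkpp, on average the order of the members' sums. In MNEB cows its mean was 521 at 1 wkpp and 327 at 16 wkpp, whereas the members' mean sum was higher at 16 wkpp. Both fibroblast markers with values ran from 14094 to 19626 at -4 wkpp and 2542 to 3285 in MNEB and 8268 to 11854 in SNEB cows at 1 wkpp, so MNEB libraries were lower. Endothelial markers (5) ran from 19262 to 23442 at -4 wkpp, 29702 to 63249.6 in MNEB and 29469 to 36584 in SNEB cows at 1 wkpp, the last 2 with overlap. Mast cell markers (4) ran from 2881 to 4518 at -4 wkpp, 278 to 437 in MNEB and 1139 to 3176 in SNEB cows at 1 wkpp, so MNEB libraries were lower than both without overlap. At 16 wkpp mast cell sums were 247 to 523 in MNEB and 2021 to 2508 in SNEB cows.

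Skeletal muscle markers (14) summed to 1542 to 6469 at -4 wkpp, 3031 to 5589 in MNEB and 1401 to 2235 in SNEB cows at 1 wkpp. At 16 wkpp the sums were 5305 to 10239 in MNEB and 656 to 2569 in SNEB cows. SNEB and MNEB cows did not overlap at either time. DES took most of the sums at -4 wkpp, with 6369, 1175 and 1385, and had 2699, 1251 and 1411 in MNEB cows at 1 wkpp. TNNT3, a fast muscle troponin, had 54.1, 339 and 223 at -4 wkpp and 1169.5, 1499 and 3939 in MNEB cows at 1 wkpp, without overlap. TNNT3 had 1644, 3043 and 3783 at 16 wkpp in MNEB cows and 101, 283 and 281 at 1 wkpp in SNEB cows, so it moved with the MNEB libraries. By contrast the muscle actin ACTA1 had 15.0, 1.22 and 0 against 1.04, 94.6 and 0 and the muscle creatine kinase CKM at most 4.89 in any library. Brown or beige adipocyte markers (6, COX8B among them) summed to 1180.0 to 1915 at -4 wkpp and 445 to 467 in MNEB and 441 to 504 in SNEB cows at 1 wkpp. At -4 wkpp most of this was CIDEA, with 1277, 798 and 1641, while in SNEB cows at 1 wkpp CIDEA had 103, 116 and 163 and PPARGC1A 332, 383 and 319. UCP1, the uncoupling protein that defines brown fat, was at 0 in 12 of the 15 libraries and at or below 2.70 in any library. Smooth muscle and pericyte (9524 to 43477 at -4 wkpp, 10076 to 20089.5 in MNEB cows at 1 wkpp), macrophage (4845 to 6905 and 1959 to 6857) and lymphocyte sums (127 to 203 and 62.1 to 143) overlapped between these groups. Between SNEB and MNEB cows some did not overlap. At 16 wkpp fibroblast sums were 1944 to 5721 in MNEB and 14076 to 21683 in SNEB cows, and lymphocyte sums 51.8 to 116 and 125 to 222. Keratinocyte sums at 1 wkpp were 6.25 to 268 in MNEB and 2.61 to 5.95 in SNEB cows. Smooth muscle and pericyte sums were 18473 to 58172 in MNEB and 4551 to 14384 in SNEB cows at 16 wkpp, where COX4I2, NDUFA4L2 and ATP5E were also higher in MNEB cows on average, and macrophage sums were 1959 to 6857 in MNEB and 7460.3 to 11393 in SNEB cows at 1 wkpp and 1908 to 2204 and 10310.2 to 13491 at 16 wkpp. Keratinocyte markers summed to 172 to 610.1 and 6.25 to 268, and mammary markers stayed at or below 16.2. The part of these cell types in the members' differences was not tested.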

How the data were processed

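RNA was extracted by the authors from dewlap fat, depleted of ribosomal RNA and made into stranded libraries. Per the labels and the study's methods, reads were demultiplexed with bcl2fastq 2.15.0, trimmed with cutadapt 1.3, aligned with TopHat2 to the cow genome and counted with HTSeq over exons alone and over whole genes, introns included. The 6 deposited tables, 1 per comparison, hold for each analysis the mean of DESeq2-normalized counts over 6 libraries, a value of no standard unit, and the fold changes, standard errors and p-values of the authors' own comparisons, which were not used.

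Because each table's mean has 15 digits, whole counts of single libraries were solved jointly from the 6 tables by lattice reduction (Python 3.11.15, sympy 1.14.0). Of 13896 genes, 13884 were solved on exons and 13881 on whole genes, with all 78 members among them. Libraries were thereby tied to groups, not to single samples, and their numbers are only names. The planned design assumed values per library, so the same test was applied to the solved counts. Genes with a mean normalized count of at least 10 were tested with limma 3.58.1 (R 4.3.3, eBayes with trend) on log2(normalized count + 1), two-sided, with Benjamini-Hochberg adjustment over all genes. Differences are on that scale, which understates those of low genes. A gene counted as called when the exon and whole gene fits each gave an adjusted p below 0.01 and had 1 sign. Both steps were tested on simulated data.

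Named were, in each comparison without calls, the 2 members of lowest unadjusted p in each direction, the complex IV paralogue sets, and the member with most exon counts per complex. Genes named beyond this are said to be so chosen, and the cell type markers named singly were picked after their values were seen. The members and lists were chosen with earlier results of these data known. Alternatives covered the analysis, threshold, pseudocount, filter, normalization, test, libraries in the fit and each library left out, and, added after seeing the data, thinning to the shallowest library and leaving out shallow MNEB libraries. No sequence was used here. The values of 1 member are not reported here by name, though it is in the counts and sums. Depth limits precision in the 4 shallow MNEB libraries.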

Additional observations from a re-analysis of the deposited data

Results flagged for a closer look

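Rows for spike-in RNA, which the comparisons do not use, took 39.8% of the mean normalized exon counts in the table of MNEB cows at 1 and 16 wkpp and 3.83% in that of SNEB cows. In the table of MNEB cows and -4 wkpp the share was 31.0% and in that of SNEB cows and -4 wkpp 4.96%. The spike-in share was thus high wherever MNEB libraries entered. Its part in the members' differences was not tested.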

How the results depend on the processing

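No member was called in the main analysis of any comparison, and the direction of the members' median was kept under every alternative run. The median log2 difference ranged from 0.82 to 1.10 for -4 wkpp against MNEB and from 0.25 to 0.46 against SNEB cows at 1 wkpp, from -0.58 to -0.47 for MNEB and -0.17 to -0.093 for SNEB cows at 1 against 16 wkpp, from 0.58 to 0.75 for SNEB against MNEB cows at 1 wkpp, 0.15 to 0.38 at 16 wkpp, and 0.30 to 0.46 for the difference of time changes. The number of members called did depend on the setting. For -4 wkpp against MNEB cows at 1 wkpp it was 32 on exon values alone (1785 of 10511 genes in all), 15 at an adjusted p below 0.05 (1105 of 10400 genes in all), 3 with library totals (318 of 10416 genes in all), 20 with all 15 libraries in one fit (1247 of 10334 genes in all) and 4 after thinning to the shallowest library, an alternative chosen after seeing the data (319 of 9360 genes in all). Leaving out 1 library gave 0 to 2, the 2 (ATP5A1 and ATP5G3) without MNEB 1 wkpp library 1. For SNEB against MNEB cows at 1 wkpp it was 1 on exon values alone, 1 at 0.05, 2 with all libraries in one fit, and 0 to 2 with 1 library left out, the 2 (ATP5B and UQCRB) again without MNEB 1 wkpp library 1. For SNEB against MNEB cows at 16 wkpp it was 2 at 0.05. The cause of these differences was not tested. Single genes changed sign only where their differences were within the spread. On whole gene values ATP5E had 0.041 and COX7B 0.50 for -4 wkpp against MNEB cows at 1 wkpp, NDUFC1 -0.11 for MNEB cows at 1 against 16 wkpp, and ATP5E 0.22 and COX7B 0.22 for SNEB against MNEB cows at 1 wkpp. COX7B had 0.099 with a pseudocount of 5. With 1 library left out it ranged from -0.78 to 1.09, above 0 without -4 wkpp library 2 or MNEB 1 wkpp library 1 or 2. NDUFB4 had 0.059 for -4 wkpp against SNEB cows after thinning, NDUFA3 ranged there from -0.65 to 0.61 with 1 library left out (above 0 without -4 wkpp library 1 or SNEB 1 wkpp library 2), and NDUFC1 from -0.054 to 0.34 for MNEB cows, 1 against 16 wkpp (below 0 without MNEB 1 wkpp library 2 or MNEB 16 wkpp library 3). Leaving out the MNEB libraries under 3000000 exon counts could not be fitted for MNEB cows at 1 against 16 wkpp, where it leaves 1 library a group. No paired analysis was possible because the tables do not tie libraries to cows or to numbered samples.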
